A study of Mus musculus with 12 samples.

Results

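Collagens are the main structural proteins of the extracellular matrix, and the genes described here were those whose symbol in either deposited table of normalized counts was Col, a type number, the letter a and a chain number. Of the 53801 counted genes, 43 met that rule. All 43 were in the colon table of 32689 genes, and 31 were in the blood table of 25514 genes. Col19a1 has a symbol of the same form but was in neither table.

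The study profiled total RNA of colon and whole blood from male C57BL/6 mice from Taconic, obtained at 8 weeks of age. The groups were 3 mice labelled UC (numbers 1, 2 and 4), which by the labels and methods received 1.5% dextran sulfate sodium (DSS, a polysaccharide that injures the colon epithelium) in drinking water for 7 days, and 3 mice labelled control (numbers 7, 8 and 9), which by the same sources received water without DSS. The mice were killed on day 8, and both tissues came from the same 6 mice, so there were 12 libraries in 4 groups of 3. The study chose these 6 of 10 mice by their disease activity score, the model is chemical and acute, and the methods describe the mice as wild type.

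A collagen protein is a trimer of 3 alpha chains wound into a triple helix, in which glycine, the residue with the smallest side chain, has to recur after each pair of other residues to fit the centre. Fibrillar collagens (types I, II, III, V, XI, XXIV and XXVII) form the load-bearing fibrils, and fibril-associated collagens decorate them. Type IV chains form the sheet of basement membranes, type VI forms beaded filaments around cells, type VII anchors epithelium to the matrix, and the multiplexins (types XV and XVIII) sit at the edge of basement membranes. In the gut wall, fibroblasts, smooth muscle and endothelium are the known makers of most of these chains. The remaining members were the short-chain network formers (types VIII and X), transmembrane collagens (types XIII, XVII, XXIII and XXV) and types XXVI and XXVIII.

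The helix leaves a mark in the genes that the symbol rule did not use. A coding exon of 54 bases holds 6 turns of the glycine repeat, and 454 of the 1955 coding exons of the 43 genes (23.22%) had exactly that length, against 891 of 197836 (0.45%) in the other protein-coding genes of the GENCODE annotation. The share was 47.0% in the 11 fibrillar genes (305 of 649 exons), 24.61% in the 8 fibril-associated genes and 4.05% in the 6 type IV genes. None of the 6 coding exons of the network formers Col8a1, Col8a2 and Col10a1 had that length. Exons whose length is a multiple of 9 bases made up 82.4% of fibrillar coding exons and 14.03% of those of other genes. These exons, from the GRCm38 transcripts, are shown because they are the repeat unit of the 2 most abundant fibrillar chains and of the most abundant type IV chain in these libraries. Each begins with a codon for glycine, and capitals mark the 6 glycine codons.

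Col3a1, exon 6, chr1:45325360-45325413, plus strand: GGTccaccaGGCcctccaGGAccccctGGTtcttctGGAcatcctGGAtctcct

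Col1a2, exon 8, chr6:4515481-4515534, plus strand: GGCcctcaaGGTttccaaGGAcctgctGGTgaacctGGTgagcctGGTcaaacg

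Col4a1, exon 7, chr8:11245211-11245264, minus strand: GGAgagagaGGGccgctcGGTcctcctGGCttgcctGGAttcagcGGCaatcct

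The glycine codon stood at the start of every triplet of codons in 24 of the 24 such exons of Col3a1, in 23 of 24 of Col1a2 and in 2 of 2 of Col4a1.

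Before any comparison, the labels were set against the data. GEO's labels give the tissue in 2 fields that disagree. The groups here follow the tissue characteristic, and 12 of 12 red cell and epithelium marker genes separated the colon from the blood libraries that way. The disease labels went against the inflammatory genes. The summed normalized count of 7 inflammatory genes (S100a8, S100a9, Lcn2, Il1b, Saa3, Il6 and Cxcl2) in colon was 22585, 271 and 183 under the UC label (mice 1, 2 and 4), and 10463, 366 and 86186 under the control label (mice 7, 8 and 9). In blood the same sum was 370184, 44315 and 44358 under the UC label and 146211, 35204 and 320676 under the control label. Mice 1, 7 and 9 were thus high in both tissues and mice 2, 4 and 8 low, so the groups are called by their labels throughout, and every direction given here is between libraries labelled UC and libraries labelled control. The normalized tables of both tissues also list their columns in the mouse order 1, 7, 9, 2, 4, 8. Single genes were sharper: in colon Saa3 was at 4701, 3256 and 26328 in mice 1, 7 and 9 and at 0 in mice 2, 4 and 8. Il6 was at 314, 173 and 1477 in the former and at 0 in the latter. The labels of mice 2, 4, 7 and 9 thus went against these genes. Whether each mouse received the treatment its label gives was not tested. No UC against control value can therefore be read as an effect of DSS or as its absence. Total counts ran from 69181049 to 103662306 per colon library and from 80867247 to 142536804 per blood library. The collagen genes took 100262 to 415134 counts of a colon library and 518 to 1225 of a blood library.

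The colon held a collagen mixture led by type III, type IV and type VI chains. Levels between genes are compared per kilobase of merged exons, from the normalized counts (counts that the authors divided by 1 factor per library). Col3a1 (ENSMUSG00000026043, chromosome 1, 45311538 to 45349706), the chain of the thin reticular fibrils of soft tissue, had the highest level, at 7259 ± 3541 normalized counts per kilobase (SD, n = 6), and it took 26.8% of the collagen signal on average. Col4a1, a chain found in nearly every basement membrane, followed at 3667 ± 2209, and Col6a1, a chain of the pericellular filaments, at 2650 ± 833. Col4a2 stood at 2341 ± 1280, Col1a2 at 1551 ± 528 and Col1a1 at 1228 ± 513. Among these 6, neighbours below Col3a1 differed by less than the larger of their SDs. With the longest annotated transcript as the length, Col3a1 took 33.8%, and Col1a2 moved up to rank 3 and Col1a1 down to rank 8. In all, 5 members had a mean of at least 10000 normalized counts, 19 of at least 1000 and 33 of at least 100.

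By class, fibrillar chains made up 46.1% of the per-kilobase signal in colon, and the share lay between 44.7% and 47.3% in the 6 libraries. Type IV chains took 23.2% (19.8% to 27.0%) and type VI chains 17.7% (14.8% to 20.4%). Fibril-associated chains took 7.11% and had the largest ratio between libraries among the 4 larger classes, from 4.34% in mouse 9 to 9.36% in mouse 8. The multiplexins took 3.71%, and the network formers, transmembrane chains, type VII and the others together held the small remainder. The length used moved these shares: with the longest transcript, fibrillar chains took 55.1% (53.7% to 56.4%), type IV 18.0% and type VI 15.5%. The summed normalized counts of all members differed 2.96-fold between libraries, more than the shares of the fibrillar, type IV, type VI and fibril-associated classes did. That sum was 198620, 192066 and 136804 in mice 1, 2 and 4 labelled UC, and 300105, 126377 and 373542 in mice 7, 8 and 9 labelled control. The highest and the lowest libraries were both labelled control, and the 3 highest were mice 9, 7 and 1. In bulk tissue, fewer cells of a type and less RNA per cell cannot be told apart.

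**Figure D1:**
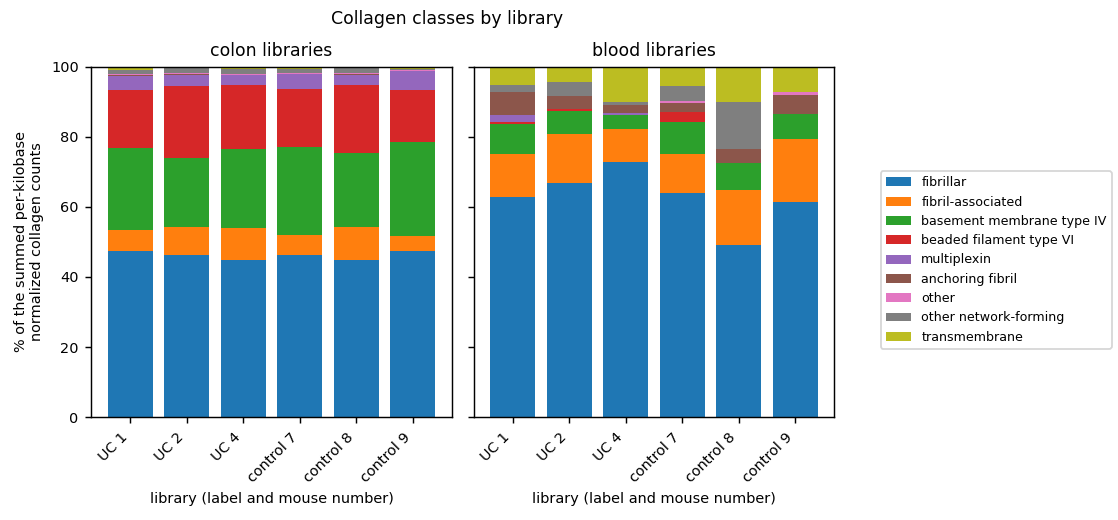
Stacked bars give the share (%) of each collagen class in the summed per-kilobase normalized collagen counts of each library, colon at left and blood at right, by label and mouse number. Fibrillar chains (blue) fill 44.7% to 47.3% of every colon bar and 49.0% to 72.8% of the blood bars, and type VI (red) reaches 14.8% to 20.4% in colon and at most 3.07% in blood.

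Trimers need their chains in set proportions, and the ratio of partner chains was therefore taken in each colon library. A pair of alpha 1 chains and an alpha 2 chain of type IV make the common basement membrane trimer, and Col4a1 stood at 1.59, 1.45 and 1.61 times Col4a2 per kilobase in mice 1, 2 and 4 and at 1.49, 1.38 and 1.70 times in mice 7, 8 and 9. This was the narrowest of the ratios taken, with a mean of 1.54 ± 0.117 (SD, n = 6) and a 1.23-fold range, while Col4a1 itself ranged 4.32-fold. The 2 genes lie head to head on chromosome 8, and their annotated starts overlap by 22 bases. The stretch is shown because both genes begin in it. Capitals mark the 22 bases from the start of Col4a2, on the plus strand, to the start of Col4a1, on the minus strand (RefSeq promoter table, GRCm38.p6).

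Col4a1 and Col4a2 starts, chr8:11312801-11312830, plus strand: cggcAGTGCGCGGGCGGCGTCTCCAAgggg

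The capitals hold GGGCGG, the letters known as a GC box. Around the start of Col4a2, 73.7% of the 300 bases of the promoter window (250 before the start and 50 after) were G or C, against a median of 52.7% over all such windows. Promoter windows were found for 34 of the 43 genes, 37 windows in all. GGGCGG, on either strand, was in 23 of them (62.2%) and in 35.7% of all 32851 windows. CCAAT was in 35.1% of the collagen windows and 37.4% of all windows, and TATAAA in 13.5% and 13.6%. These are letter matches on either strand, not binding sites, and matches of different motifs could overlap.

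For type VI, whose filament is built from alpha 1, alpha 2 and alpha 3 chains, Col6a1 stood at 2.83 ± 0.312 times Col6a2 and Col6a3 at 0.312 ± 0.0394 times Col6a1, with ranges of 1.38-fold and 1.35-fold. The ratio of Col5a1 to Col5a2, the chains of the type V collagen that starts fibrils, was 1.03 ± 0.167. The ratio of Col1a1 to Col1a2 was the widest of the 5 set in the design, at 0.778 ± 0.164, and it was 0.476 in mouse 4 against 0.728 to 0.937 in the other 5. Col1a1 protein outnumbers Col1a2 in the type I trimer, yet per kilobase of merged exons Col1a2 was counted higher in all 6 libraries. The length used sets the size of these ratios: with the longest transcript, the type I ratio was 0.371. Of 3 ratios added after the values were seen, Col3a1 to Col1a1 was 6.05 ± 1.65, Col4a5 to Col4a6, the X-linked head-to-head pair, was 2.99 ± 0.531, and Col4a4 to Col4a3, at low counts, was 1.54 ± 1.44.

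**Figure D2:**
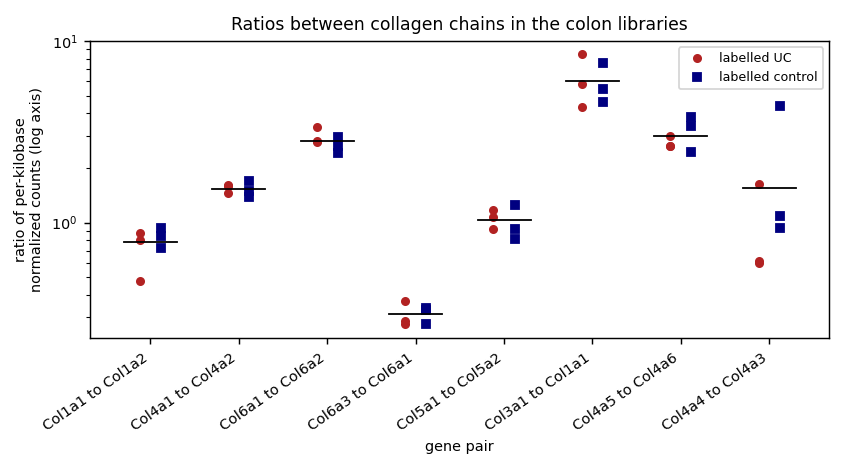
Each point is the ratio of the per-kilobase normalized counts of 2 collagen genes in 1 colon library (log axis), circles for libraries labelled UC and squares for those labelled control, and the line is the mean of 6. Col4a1 to Col4a2 is the tightest group (1.38 to 1.70), and Col4a4 to Col4a3 the widest (0.601 to 4.38).

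The first question of the design was whether collagen genes differed between UC and control colon, and between the libraries so labelled none passed the test. Of the 43 members, 40 passed the filter on low counts (Col2a1, Col9a1 and Col10a1 did not). In edgeR's quasi-likelihood test, 0 of 40 were significantly differentially expressed (SDE, an adjusted p of at most 0.05 and an absolute log2 fold change over 1), against 1 of all 22238 genes tested (0.0045%). At an unadjusted p under 0.05 there was 1 member, Col8a2 (1.41% of all genes passed), and DESeq2 also gave 0 SDE members and 1 at that unadjusted p, again Col8a2. The groups did not overlap, with UC higher, for 1 member (3.51% of all genes) and, with control higher, for 0 (2.17%).

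Within that result, 32 of the 40 fold changes were below 0, that is lower in the libraries labelled UC, and 8 were above, while 51.0% of all genes tested were below 0. The median log2 fold change of the 40 was -0.38, against -0.007 for all genes. By class, 10 of the 10 tested fibrillar genes lay between -0.70 and -0.01 and the 6 type VI genes between -0.84 and -0.02. The type IV genes were divided, from -0.90 for Col4a1 and -0.87 for Col4a2 to 0.96 for Col4a3. The median rested on single libraries: it was -0.132 without mouse 9 and -0.667 without mouse 8, both labelled control, -0.252 without mouse 7, and -0.606, -0.521 and -0.231 without mouse 1, 2 or 4.

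**Figure D3:**
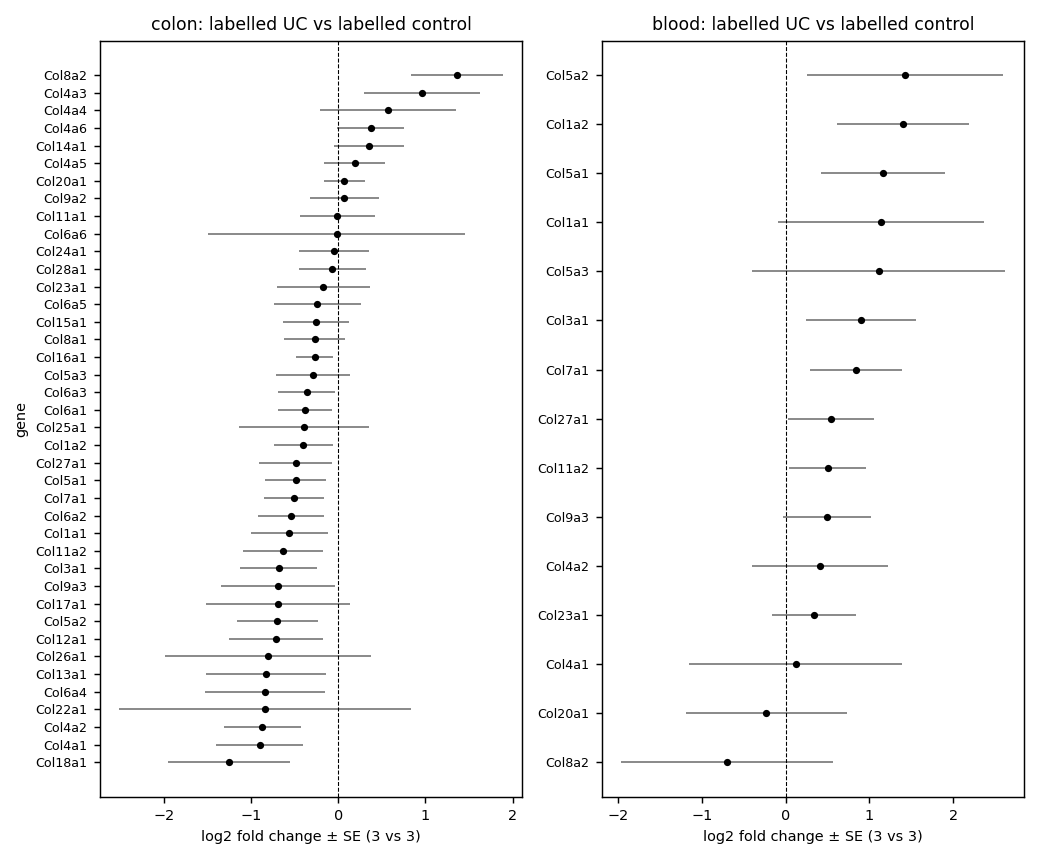
Points are log2 fold changes of libraries labelled UC over libraries labelled control (3 against 3) with bars of 1 SE, for the 40 collagen genes tested in colon at left and the 15 tested in blood at right. Most colon points lie left of 0 (32 of 40) and most blood points right of 0 (13 of 15), and 0 of either passed the adjusted threshold.

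Col3a1 shows the spread behind these medians. Its normalized counts were 65382, 56731 and 42703 in mice 1, 2 and 4 and 98827, 37254 and 126610 in mice 7, 8 and 9. The 3 highest libraries were mice 9, 7 and 1, those with the highest inflammatory sums, and the libraries labelled control held both extremes, so the labelled groups overlapped (log2 fold change -0.68 ± 0.441 SE, adjusted p = 0.9999 by edgeR). The type I chains, which with type III build the thick fibrils of scar and submucosa, had the same control libraries at the top. Col1a1 was at 7499, 8737 and 3370 in the mice labelled UC and at 12177, 5377 and 11178 in those labelled control (-0.56 ± 0.441). Col1a2 was at 17620, 18892 and 13402 and at 24616, 12000 and 29091 (-0.40 ± 0.338). Mice 7 and 9 were above the 3 libraries labelled UC for both genes and mouse 8 was not.

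The type V chains repeated the order of Col3a1 at its top and bottom. Col5a2, next to Col3a1 on chromosome 1, was at 8363, 7663 and 5732 in the mice labelled UC and at 11291, 4792 and 19062 in those labelled control. Col5a1 ran from 5285 in mouse 8 to 13717 in mouse 9, and Col5a3 from 899 in mice 4 and 8 to 2473 in mouse 9. Col27a1, a long fibrillar chain, ran from 592 in mouse 8 to 1734 in mouse 9. The cartilage-type fibrillar genes Col11a1 and Col11a2 were low, at 173 to 360 and 68.5 to 216 normalized counts. So was the fibrillar gene Col24a1, at 108 to 262. Col2a1, the main cartilage fibril chain, was at 0 to 7.56.

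Among fibril-associated genes, Col12a1, which links fibrils under load, was at 5352, 6955 and 3519 in the mice labelled UC and at 10614, 2873 and 12353 in those labelled control (-0.71 ± 0.537). Col14a1, its close relative, had another order: 3274, 4200 and 4007, against 3316, 4171 and 1392, so mouse 9, the highest library for Col12a1, was the lowest for Col14a1. Col16a1 was even across libraries, at 2933 to 5167, and Col20a1 the most even member with a mean of at least 100, at 416 to 561 (a 1.35-fold range). The median range over the 33 such members was 2.93-fold. Col9a2 stayed at 161 to 333, Col9a3 at 9.07 to 46.8, Col22a1 at 0 to 68.4 and Col9a1 at 0 to 8.52.

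The type IV genes fell into an abundant pair and 4 less abundant chains with other library orders. Col4a1 was at 23874, 17931 and 15750 in the mice labelled UC and at 38250, 12862 and 55552 in those labelled control (-0.90 ± 0.498), and Col4a2 at 13291, 10943 and 8693 and at 22741, 8279 and 29007 (-0.87 ± 0.445). Both were lowest in mouse 8 and highest in mouse 9, and neither passed the adjusted threshold (adjusted p = 0.9999 by edgeR). The fold change of Col4a1 was -0.44 without mouse 9 and -1.29 without mouse 8. Col4a5 and Col4a6, which with each other form the basement membrane of smooth muscle, were instead lowest in mouse 9: Col4a5 at 2006, 2464 and 1373 and at 2463, 1402 and 1215, Col4a6 at 792, 1109 and 619 and at 862, 682 and 377. Col4a3 and Col4a4, chains best known from kidney and lung, were at 5.40 to 41.7 and 13.9 to 72.9, and 563 exonic bases of Col4a3 overlap an antisense gene, C430014B12Rik, whose reads cannot be told apart without strand.

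The 3 classic type VI genes had ranges below the 2.93-fold median of the members. Col6a1 was at 10392, 11692 and 8248 in the mice labelled UC and at 14596, 7686 and 17035 in those labelled control, Col6a3 ran from 6426 to 13187 and Col6a2 from 4677 to 12255. The later-described alpha chains of the type were lower and less even. Col6a4 was at 816, 463 and 290 and at 1678, 267 and 849, a 6.28-fold range, Col6a5 ran from 124 to 485 and Col6a6 from 0 to 19.9.

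The multiplexin Col18a1, whose cleaved end is endostatin, had the most negative fold change of the 40 (-1.25 ± 0.697). Its normalized counts were 5091, 2930 and 1942 under the UC label and 7881, 1907 and 13810 under the control label, a 7.24-fold range with mouse 9 highest and mouse 8 lowest. Without mouse 9 the value was -0.59. Col15a1 ran from 1066 to 2480. Col13a1, a transmembrane collagen, had the widest range of the members with a mean of at least 100, 7.90-fold, from 35.3 in mouse 8 to 279 in mouse 9. Col23a1 was at 977, 396 and 385 and at 886, 310 and 767, Col25a1 at 228, 62.7 and 65.2 and at 285, 69.3 and 106. The 3 highest libraries of both were mice 1, 7 and 9. Col17a1, the hemidesmosome collagen of squamous epithelium, was at 4.95 to 70.2.

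Col8a2, a short chain of hexagonal networks such as the membrane under the corneal endothelium, was the member with the lowest p. It was at 254, 472 and 282 in the mice labelled UC and at 121, 207 and 60.3 in those labelled control, so every library labelled UC was above every library labelled control (1.36 ± 0.530, adjusted p = 0.9999 by edgeR). The value was 1.01 without mouse 9 and 1.88 without mouse 8. Its partner Col8a1 overlapped between groups, at 1658, 1759 and 1382 and at 2984, 1310 and 1422. Col7a1 was at 159 to 371, Col28a1 at 236 to 537, Col26a1 at 0 to 46.8 and Col10a1, the growth plate chain, at 0 to 7.59.

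Over the 40 tested members, mouse 9 held the highest value for 20 (22.5% of all genes), mouse 7 for 10 (14.8%) and mouse 8 for 0 (15.7%). The lowest value was in mouse 8 for 23 (18.9%) and in mouse 7 for 0 (19.7%). Mice 1, 7 and 9, which had the highest inflammatory sums, held the 3 highest values of Col3a1, Col4a1, Col4a2, Col4a4 and Col5a2. The same held for Col5a3, Col6a4, Col9a3, Col11a1, Col18a1, Col23a1, Col25a1, Col26a1, Col27a1 and Col28a1. Of the other tested members only Col13a1 shared them, with mice 1 and 2 equal at the precision given. The 3 highest were instead mice 2, 7 and 9 for Col1a1, Col1a2, Col5a1, Col6a1, Col6a2, Col6a3 and Col12a1, among others. The share of all genes with either set was not taken, so neither is read as particular to collagen genes. Markers of the cells that make collagen were divided across these libraries. The summed normalized counts of 7 fibroblast markers were 51926, 36800 and 37399 under the UC label and 57556, 33220 and 72921 under the control label. Mice 9 and 8 were again at the ends of that sum. Of the single markers, only Dcn and Lum had those ends. Pdgfra, Dpt and Thy1 were highest in mouse 7, and Pdgfrb and Fbln1 were lowest in mouse 4. The 5 endothelial markers ranged from 6713 in mouse 4 to 13200 in mouse 9, and the 6 smooth muscle markers went the other way, from 128101 in mouse 9 to 534675 in mouse 2. The part of these cell types, and of the inflammatory genes, in the collagen values was not tested.

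**Figure D4:**
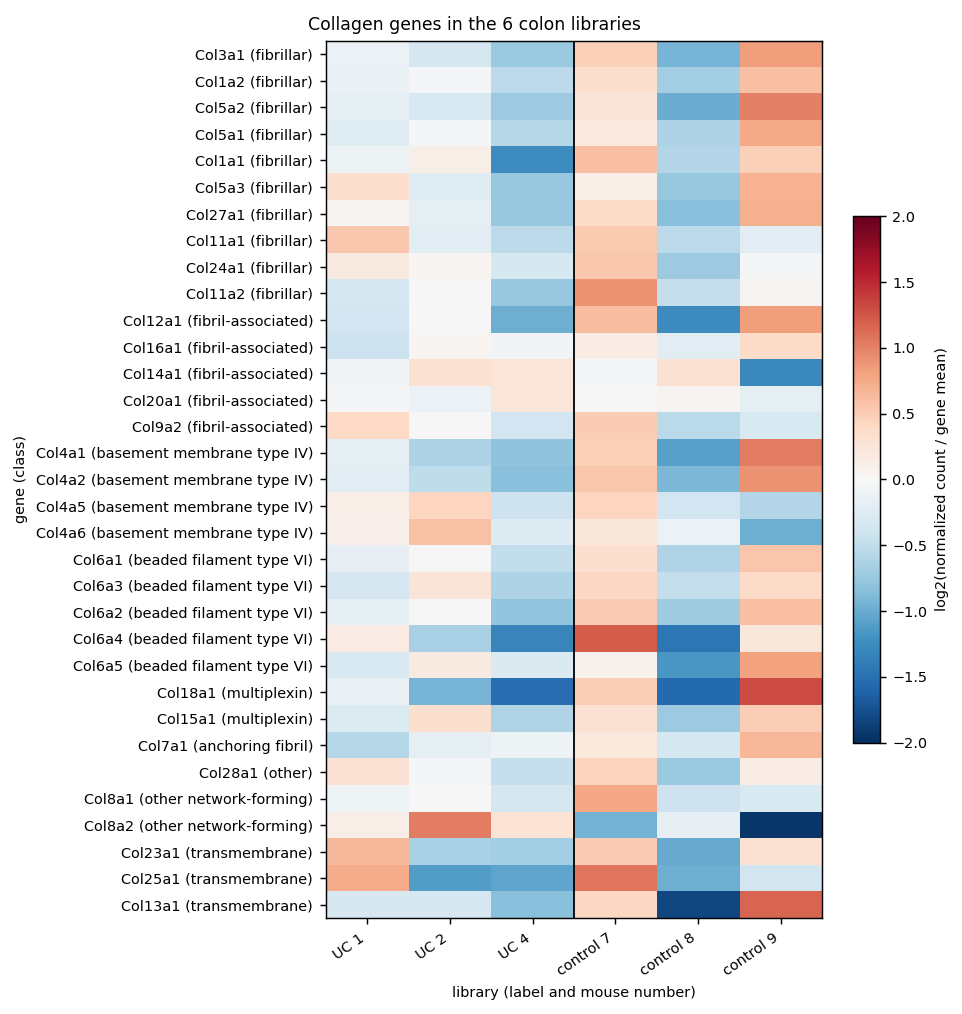
Rows are the 33 collagen genes with a mean of at least 100 normalized counts in colon, with their class, and columns the 6 colon libraries by label and mouse number. Color gives the log2 of the normalized count over the gene's own mean. The column of mouse 9 is mostly red and that of mouse 8 mostly blue, both labelled control, and Col14a1, Col4a6 and Col8a2 are among the genes that are blue in mouse 9.

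The enzymes and partners of collagen were taken from a list of 75 genes in 9 roles. In colon, 73 were tested, 0 were SDE (0.0045% of all genes) and 0 had an unadjusted p under 0.05 (1.41%). Of the 73, 57 were below 0, against 51.0% of all genes. Their median log2 fold change was -0.37, against -0.007 for all genes. The counts by role that follow stand beside that 51.0%, and nothing particular to a role is read from them. For the enzymes that hydroxylate and glycosylate the chains, 13 of 15 were below 0. P4hb, a subunit of prolyl 4-hydroxylase, ran from 28237 in mouse 8 to 47509 in mouse 9, while Ppib, the proline isomerase of the same compartment, was even, at 13158 to 14982. Of the folding and export genes 3 of 7 were below 0, and Sparc, a collagen-binding matrix protein, ran from 7880 in mouse 8 to 20315 in mouse 9. The crosslinking genes were below 0 for 6 of 6: the transglutaminase Tgm2 was at 29040, 7744 and 5875 in the mice labelled UC and at 44335, 4518 and 60249 in those labelled control, and the lysyl oxidase Loxl2 at 2798, 3294 and 1952 and at 3794, 1792 and 6102. For Tgm2, the 3 highest libraries were mice 9, 7 and 1. For Loxl2 the groups overlapped, with mouse 9 highest and mouse 8 lowest.

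Among the genes of collagen breakdown, Mmp13, an interstitial collagenase, was at 3450, 159 and 148 in the mice labelled UC and at 1376, 149 and 27653 in those labelled control, again with mice 9, 1 and 7 highest. The membrane collagenase Mmp14 ran from 2100 in mouse 8 to 8178 in mouse 9, and 6 of the 7 tested degrading enzymes were below 0. Of the propeptide-removing enzymes 6 of 7 were below 0, with Bmp1 at 990 to 2483 and Adamts2 at 998 to 2050. Basement membrane partners were below 0 for 7 of 7, among them Hspg2 (perlecan, 11385 to 24790) and Lamc1 (5198 to 12636). Of the fibril regulators 5 of 7 were below 0, with Fn1 at 27164 to 60324 and Dcn at 16581 to 43960, and of the receptors 7 of 10, with Itgb1 at 21284 to 44641 and Itga1 at 7725 to 13425. The TGF-beta genes, the best known inducers of collagen transcription, were below 0 for 4 of 7, with Tgfbr2 at 10432 to 15980 and Smad3 at 4675 to 7442. These counts too stand beside 51.0% of all genes below 0, and no role is read as particular.

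Blood held little collagen RNA. Of the 31 members in its table, 11 were counted in all 6 libraries, and 2 had a mean of at least 100 normalized counts. Those were Col11a2, a minor chain of cartilage fibrils, at 572, 178 and 217 in the mice labelled UC and at 295, 201 and 185 in those labelled control, and Col3a1, at 57.9, 182 and 283 and at 165, 70.1 and 44.7. Col11a2 was highest in mouse 1 and Col3a1 in mouse 4. Col11a2 took 34.9% of the per-kilobase collagen signal of blood on average, Col3a1 12%, Col9a3 8.10% and Col23a1 6.93%. Of the next genes by count, Col7a1 was at 30.3 to 112, Col23a1 at 24.8 to 71.2, Col27a1 at 19.5 to 60.0, Col1a1 at 3.16 to 78.5 and Col1a2 at 8.42 to 93.3. Type VI chains, a steady fraction of the colon mixture, were at 0 to 3.07% of the blood signal. The 11 counts of Col10a1 in blood all came from mouse 8.

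Between blood libraries labelled UC and those labelled control, 15 members passed the filter and 0 were SDE by edgeR, as were 0 of all 16759 genes (0.0%). None had an unadjusted p under 0.05 (1.44% of all genes), and DESeq2, which tested 31, gave 0 SDE members and 1 at that p, Col18a1. The groups of 0 members did not overlap with UC higher (3.07% of all genes) and of 0 with control higher (3.43%). Of the 15 fold changes, 13 were above 0, with a median of 0.54 against 0.036 for all genes. The 8 fibrillar genes lay between 0.50 and 1.42, led by Col5a2 (1.42 ± 1.17 SE), Col1a2 (1.40 ± 0.791) and Col5a1 (1.16 ± 0.744). Col1a2 was at 8.42, 93.3 and 86.7 in the mice labelled UC and at 31.4, 19.5 and 19.9 in those labelled control, and Col3a1 (0.90 ± 0.653) was likewise highest in mice 2 and 4. The median was 1.053 without mouse 7 and 0.41 without mouse 9. Of the fibroblast markers, 5 of 7 were below the filter in blood, and Dcn, decorin, was at 26.3, 16.6 and 18.0 in the mice labelled UC and at 2.30, 0 and 0 in those labelled control (log2 fold change 4.40, adjusted p = 0.9998 by edgeR). The summed count of the 7 markers was 1006 to 1134 under the UC label and 688 to 828 under the control label, nearly all of it Thy1, which T cells also express, and the other 6 were at 0 to 26.3 each. They were divided: Dcn, Pdgfrb (20.0) and Pdgfra (6.32) were highest in mouse 1. Lum (9.19), Dpt (9.10) and Fbln1 (2.30) were highest in mice 8, 9 and 7, labelled control. Mouse 1 was the lowest library for Col1a2. The sum of 4 skeletal muscle markers was 32.6, 242 and 70.4 under the UC label and 37.5, 58.6 and 38.9 under the control label, also highest in mice 2 and 4. The markers were divided: Ckm and Tnnt3 were highest in those mice, Acta1 was at 19.6 in mouse 4 and 27.6 in mouse 8, and Myh4 was counted only in mouse 2. Other lists had other orders, with smooth muscle highest in mouse 9 (204) and epithelium in mice 2 and 9 (232 and 199). The part of fibroblast or muscle RNA in the collagen counts of blood was not tested.

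The medians of the 2 tissues had opposite signs, and the difference of the effects was tested in a fit of all 12 libraries. Of 40 members, 0 differed between tissues in edgeR (0.0043% of all 23258 genes did), 3 had an unadjusted p under 0.05 (3.41% of all genes), and DESeq2 gave 0 and 5. The 3 were Col18a1 (-8.60), Col16a1 (-6.13) and Col28a1 (4.86). Each had a blood group whose libraries were all at 0 counts, so the fitted sizes depend on the prior count and bound nothing. For Col16a1 the value was -0.17 without mouse 1, which held its only blood counts.

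Colon against blood gave the large differences. Of 40 members, 35 were higher in colon (37.7% of all genes tested) and 2 higher in blood (20.8%), by an adjusted p of at most 0.05 and an absolute log2 fold change over 1. The filter took all 12 libraries together, so a gene could enter through its colon counts alone. In the blood libraries alone 15 members passed it. The number called higher in colon, the median and the non-overlap given below were thus partly set by the filter. Of the 30 tested members in both normalized tables, 26 were higher in colon and 2 in blood. The median fold change of the members was 7.24 on the log2 scale, or 7.02 with the 10 tested genes that had no blood counts set to their bound, against 0.459 for all genes. The tissues were prepared with different depletion kits (ribosomal RNA from colon, ribosomal and globin RNA from blood), and kit and tissue cannot be told apart. Scaling mattered here: with library size alone the median of all genes was 2.57, 91.1% of the calls over all genes were higher in colon (64.4% with TMM), and 38 members were higher in colon and 0 in blood.

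Of the 6 type VI genes, 3 had no count in blood and the others 6 to 22 over the 6 libraries. Mean TMM-scaled CPM (counts over the effective library size) were 44.8 ± 18.1 in colon and 0.0168 ± 0.0264 in blood for Col6a2 (SD, n = 6 each), a 2669-fold difference, and 64.5 ± 20.7 against 0.0430 ± 0.0805 for Col6a1, a 1499-fold difference. These folds rest on 6 and 17 blood counts, 14 of the 17 in mouse 7, without which 3 remain and no fold is given. In the blood libraries 12 members had no count at all. Against a floor of 3 counts over the 6 blood libraries, Col8a1 was at least 1113-fold higher in colon, Col4a6 at least 468-fold and Col6a4 at least 464-fold. Such bounds cover counting error only. Col3a1 was 163-fold higher in colon (396 ± 196 against 2.43 ± 1.69 CPM, log2 fold change 7.37 ± 0.575 SE, adjusted p = 9.3e-07 by edgeR), Col4a1 461-fold (306-fold without mouse 9) and Col1a1 73.8-fold (113-fold without mouse 4). Tissues did not overlap for 31 members with colon higher (34.3% of all genes tested) and for 2 with blood higher (19.2%).

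The 2 members higher in blood were both minor cartilage-type chains. Col11a2 (ENSMUSG00000024330, chromosome 17, 34039437 to 34066685) was at 5.00 ± 2.81 CPM in blood and 0.644 ± 0.308 in colon, a 7.76-fold difference without overlap (log2 fold change -2.97 ± 0.380, adjusted p = 3.8e-05 by edgeR). Col9a3, a type IX chain on chromosome 2, was at 0.599 ± 0.219 in blood and 0.168 ± 0.0873 in colon (-1.85 ± 0.433, adjusted p = 0.00269). With library size alone in place of TMM neither was called, at -0.80 (adjusted p = 0.0666) for Col11a2, and Col9a3 turned to 0.28 (adjusted p = 0.588). A further limit for Col9a3 is that 234 of its exonic bases overlap Tcfl5 on the other strand. Their cartilage partners were not higher in blood: Col2a1, Col9a1 and Col9a2 had no count in blood and Col11a1 had 8.

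Col7a1, Col4a3 and Col4a4 did not pass between the tissues. Col7a1, the anchoring fibril of stratified epithelium, was at 1.31 ± 0.428 CPM in colon and 0.865 ± 0.580 in blood (0.63 ± 0.345, adjusted p = 0.123), where it was highest in mouse 1, and without that mouse it was called, at 1.09 (adjusted p = 0.00786). Col4a3 was at 2.06 ± 0.870 (adjusted p = 0.0528) and Col4a4 at 1.01 ± 1.12 (adjusted p = 0.439). Col8a2 was called at 1.97 ± 0.732 (adjusted p = 0.0316), a call lost without mouse 1, 2, 4 or 7 (adjusted p from 0.0561 to 0.0917) while the fold changes, 1.83 to 2.13, stayed near it. Of the 73 tested collagen enzymes and partners, 53 were higher in colon and 7 in blood (37.7% and 20.8% of all genes). Those 7 were Adamts14, Itgb1, Gp6 (the collagen receptor of platelets), Lair1 (a collagen receptor of leukocytes), Mmp8, Mmp9 (both neutrophil enzymes) and Tgfb1. Of the 10 receptors, 5 were higher in colon and 3 in blood, from which nothing particular to receptors is read. The 73 also entered by the filter on all 12 libraries, and 44 of the list passed it in blood alone.

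**Figure D5:**
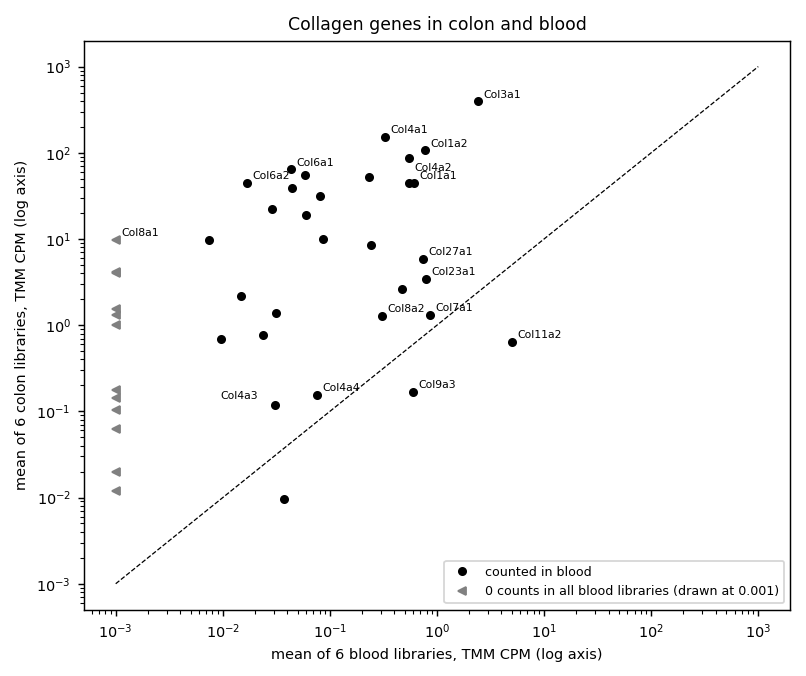
Each point is a collagen gene, with its mean TMM-scaled CPM over 6 blood libraries on the x axis and over 6 colon libraries on the y axis (both log), and the dashed line marks equal levels. Grey triangles are the 12 genes with 0 counts in all blood libraries, drawn at 0.001. Col11a2 and Col9a3 lie right of the line among the called genes, which for Col9a3 does not hold with library size alone, and Col3a1 is highest on the y axis.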

How the data were processed

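Total RNA libraries of colon and whole blood from 6 mice were analysed. Per the study's methods and processing notes, the authors trimmed the reads, removed ribosomal reads, mapped with STAR to GRCm38, quantified with StringTie 1.3.4c on Ensembl release 92 with no strand set, and derived whole-number gene counts from transcript coverage. The deposited normalized tables are a signal scale, the count divided by 1 factor per library. Read depth is the total count given in the text.

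The deposited counts were fitted with edgeR 4.0.16 (TMM, filterByExpr, quasi-likelihood test, Benjamini-Hochberg over all genes) in R 4.3.3, each tissue alone for UC against control and all 12 libraries for the difference of effects and for colon against blood. DESeq2 1.42.0 was an alternative. The scripts were tested on simulated data with planted changes, fitted at median absolute log2 fold changes of 1.93 to 2.02. At a simulated dispersion (the squared coefficient of variation) of 0.2, 28.1% of them were recovered in colon and 44.2% in blood. For the difference of effects 2% were, and for colon against blood 94%. At a dispersion of 0.05 these shares were 100%, 99%, 70% and 100%. The fitted dispersion was above 0.2 in colon and in the fits of all 12 libraries (biological coefficient of variation, its square root, 0.503 and 0.499). In blood it lay between the simulated settings (0.417). Except in blood, the shares thus come from data less variable than these. Counts of 0 SDE members are therefore not read as absence of change. Exon lengths and overlaps came from GENCODE vM21, which held 53706 of the 53801 gene IDs, sequences from its transcripts and RefSeq. The members, classes and lists were chosen with earlier results of these data known. Named were the 3 most abundant members per class, the 8 highest in blood, those with an unadjusted p under 0.05 or groups that do not overlap, the 5 widest ranges, the chains of the ratios and the 5 largest tissue differences each way. The remaining members are given by their range, and of each role list the 2 genes highest in colon. The members' log2 fold changes between tissues are edgeR's fitted values. A fixed floor of 3 counts where blood had none sets only the bounds and the median that uses them. The mouse numbers pair the tissues, because the study took both from the same mice; deviations of same-numbered libraries from their group means correlated at 0.0214 to 0.269 over 15802 genes. Replicates were compared and no pair agreed within sampling noise. There were 0 per-sample columns left unused.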

Additional observations from a re-analysis of the deposited data

How the results depend on the processing

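Of 458 values under alternatives, 436 kept their direction and side of the threshold or stayed within the spread. The counts of 0 SDE members in colon, in blood and for the difference of effects were 0 under every alternative run, leaving out each mouse included. With library size alone, 0 members were higher in blood, Col9a3 turned to 0.28 and the median of the tested members in blood was 0.289 (all genes -0.27). Without 1 mouse the colon median ran from -0.667 to -0.132, the blood median from 0.41 to 1.053, and the members higher in colon from 32 to 35. With the longest transcript as the length, the ratios were 0.371 for Col1a1 to Col1a2, 1.69 for Col4a1 to Col4a2, 1.78 for Col6a1 to Col6a2 and 0.716 for Col5a1 to Col5a2, set by the lengths alone.

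With a replicate block for the mouse, 34 members were higher in colon and 2 in blood, and 0 differed in effect between tissues, and the pairing ended the call of Col6a6 (adjusted p = 0.0578 by edgeR, 0.0394 without the block), the 1 member whose call it changed. Col4a3, not called between tissues, was called with DESeq2, with RLE factors, with the genes of the normalized tables only, with library size alone and without mouse 9 (adjusted p = 0.0237, 0.0490, 0.0468, 0.00109 and 0.0147), and Col7a1 (2.83) and Col4a4 (3.01) with library size alone. The causes were not tested. The biological coefficient of variation was 0.503 in colon and 0.417 in blood. In blood 518 to 1225 counts per library lay behind all members together.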
